A study of Mus musculus with 29 samples.

Results

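Treg suppressive mediators are genes whose products are used by regulatory T cells (Treg) to restrain other cells, or that mark such cells. 8 genes were described: Lrrc32, Tgfb1, Tgfb3, Ebi3, Fgl2, Areg, Gpr83 and Capg. They were chosen by name, by matching the Ensembl gene identifiers of the deposited count tables to mouse gene symbols, and are 8 of the 55414 genes counted. All 8 passed the filter on low counts, which left 14375 genes for testing. Poly(A) RNA-seq was done on 29 libraries of mouse spleen CD4 T cells that had been activated with antibodies to CD3 (1.25 µg/ml) and CD28 (2.5 µg/ml). The culture medium was low in glucose (0.5 mM) and held IL-2 (50 IU/ml), with or without TGF-beta (3 ng/ml) and with or without lactic acid (10 mM).

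All cells came from C57BL/6-Foxp3tm1Flv/J mice, a strain in which a red fluorescent protein (RFP) reports the Treg transcription factor Foxp3. Tcon denotes cells sorted as CD4+ FoxP3RFP-, and Treg denotes cells sorted as CD4+ FoxP3RFP+. At 24 h there were 4 groups of Tcon: neither addition (control), lactic acid, TGF-beta, and TGF-beta plus lactic acid. At 72 h the same 4 groups of Tcon were joined by 2 groups of Treg, from TGF-beta and from TGF-beta plus lactic acid. Each of the 10 groups had 3 libraries, except the 72 h control Tcon with 2 (replicates 1 and 2). Replicate 1 is labelled as from a male source mouse and replicates 2 and 3 as from female ones, and the ages of the mice are not in the labels. The Treg here arose or persisted in culture with TGF-beta, so no Treg taken directly from a mouse, and no Treg from medium without TGF-beta, was measured. The labels do not say that replicates were separate mice throughout, so p-values measure the spread between these samples. They also do not say whether 24 h and 72 h cultures were 1 experiment, so time and experiment cannot be told apart.

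Each library held 9754511 to 14315313 counts assigned to genes (median 12106958). Foxp3, the reporter gene, was at 153 to 303 counts per 1000000 of the TMM-scaled library size (CPM) in Treg of the TGF-beta medium and at 15.4 to 35.6 CPM in the matching Tcon. With lactic acid added these ranges were 363 to 573 CPM in Treg and 35.7 to 59.8 CPM in Tcon, so the 2 gates did not overlap. Without TGF-beta, Foxp3 was at 0 to 1.97 CPM in every Tcon library, and at 24 h with TGF-beta it was at 44.2 to 73.3 CPM in cells labelled FoxP3RFP-. All 8 CD4 T cell markers (Cd3e, Cd3g, Cd3d, Cd4, Trac, Cd28, Cd5 and Lck) were detected, with summed levels of 2538 to 3767 CPM. The 14 myeloid markers summed to 2.22 to 6.99 CPM, with C1qa, Cd14, S100a8 and S100a9 at 0 in all 29 libraries. In bulk RNA, fewer cells that express a gene and less RNA of it per cell cannot be told apart.

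TGF-beta is made as a latent complex, and Lrrc32 (GARP) is the membrane protein that holds this complex on the surface of activated Treg. Ebi3 is a secreted chain that pairs with a second chain to make a cytokine: with Il12a in IL-35 and with Il27 in IL-27. Fgl2 is a secreted fibrinogen-like protein that binds an inhibitory Fc receptor, and Areg (amphiregulin) is a ligand of the epidermal growth factor receptor linked to tissue repair by Treg. Gpr83 is a G protein-coupled receptor and Capg an actin-capping protein, and both are often listed among Treg signature genes.

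RefSeq promoter sequence was at hand for 6 of the 8 genes, all but Lrrc32 and Tgfb3. The 250 bases before the annotated start (assembly GRCm38.p6) were searched on both strands for 4 motifs: the AP-1 site TGANTCA, the SMAD box CAGAC (bound by the transcription factors of the TGF-beta pathway), the cAMP response element TGACGTCA and the forkhead site TGTTTAC. Fgl2, Gpr83 and Ebi3 changed with TGF-beta, and Areg, which had few counts, was not called for it. The windows of these 4 genes are shown because each held a match. All are on the plus strand, read 5′ to 3′, and capitals mark the matches, of which none overlaps another.
Fgl2, chr5:21372423-21372672: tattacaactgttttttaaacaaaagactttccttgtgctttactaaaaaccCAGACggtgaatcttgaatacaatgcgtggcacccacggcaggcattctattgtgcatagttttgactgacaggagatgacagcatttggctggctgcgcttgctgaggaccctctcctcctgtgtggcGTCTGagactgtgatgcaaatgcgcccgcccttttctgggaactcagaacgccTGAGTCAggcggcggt
Gpr83, chr9:14859960-14860209: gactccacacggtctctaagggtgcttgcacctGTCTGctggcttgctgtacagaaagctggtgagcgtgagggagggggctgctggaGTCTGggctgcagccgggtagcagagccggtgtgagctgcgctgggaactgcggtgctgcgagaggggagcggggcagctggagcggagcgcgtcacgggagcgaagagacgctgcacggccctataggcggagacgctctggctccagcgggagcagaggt
Ebi3, chr17:55952373-55952622: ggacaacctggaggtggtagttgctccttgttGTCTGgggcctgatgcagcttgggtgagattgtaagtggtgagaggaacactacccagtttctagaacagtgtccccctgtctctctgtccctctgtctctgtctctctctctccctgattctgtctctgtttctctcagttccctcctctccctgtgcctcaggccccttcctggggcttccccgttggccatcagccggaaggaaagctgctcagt
Areg, chr5:91139349-91139598: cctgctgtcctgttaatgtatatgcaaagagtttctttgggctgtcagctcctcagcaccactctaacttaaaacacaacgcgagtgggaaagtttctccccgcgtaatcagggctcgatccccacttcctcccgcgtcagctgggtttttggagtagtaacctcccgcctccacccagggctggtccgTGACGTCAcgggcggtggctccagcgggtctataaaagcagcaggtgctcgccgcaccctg
The Fgl2 window held 2 SMAD boxes and 1 AP-1 site, the latter starting 16 bases before the gene's start. Gpr83 held 2 SMAD boxes, Ebi3 held 1, and Areg held 1 cAMP response element 61 bases before its start. Among 32851 promoter windows of this length, 42.2% held a SMAD box, 6.75% an AP-1 site, 1.55% a cAMP response element and 3.17% a forkhead site. The windows of Tgfb1 and Capg, which also rose with TGF-beta, held none of the 4 motifs. A match says that the letters are there and nothing of binding.

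The genes covered a wide range of levels. Per kilobase of exon, the mean over the 29 libraries was 171 CPM for Capg, 52.4 for Tgfb1, 11.8 for Lrrc32, 8.40 for Ebi3, 7.98 for Gpr83, 1.48 for Tgfb3, 0.736 for Fgl2 and 0.452 for Areg. Exon lengths came from another assembly (GRCm38) than the counts, so this order is approximate. Lrrc32, Tgfb1, Gpr83 and Capg had their highest group mean in Treg with TGF-beta plus lactic acid. Tgfb3 and Fgl2 were highest in Tcon of that medium, Ebi3 in 72 h Tcon with lactic acid and no TGF-beta, and Areg in 72 h Tcon with TGF-beta. Ordering the 10 groups by mean gives 9 steps between neighbours. The libraries of neighbouring groups did not overlap at 4 steps for Tgfb1, at 2 each for Tgfb3, Ebi3, Fgl2, Gpr83 and Capg, at 1 for Lrrc32 and at 0 for Areg. The other steps lay within the spread of the libraries.

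**Figure D1:**
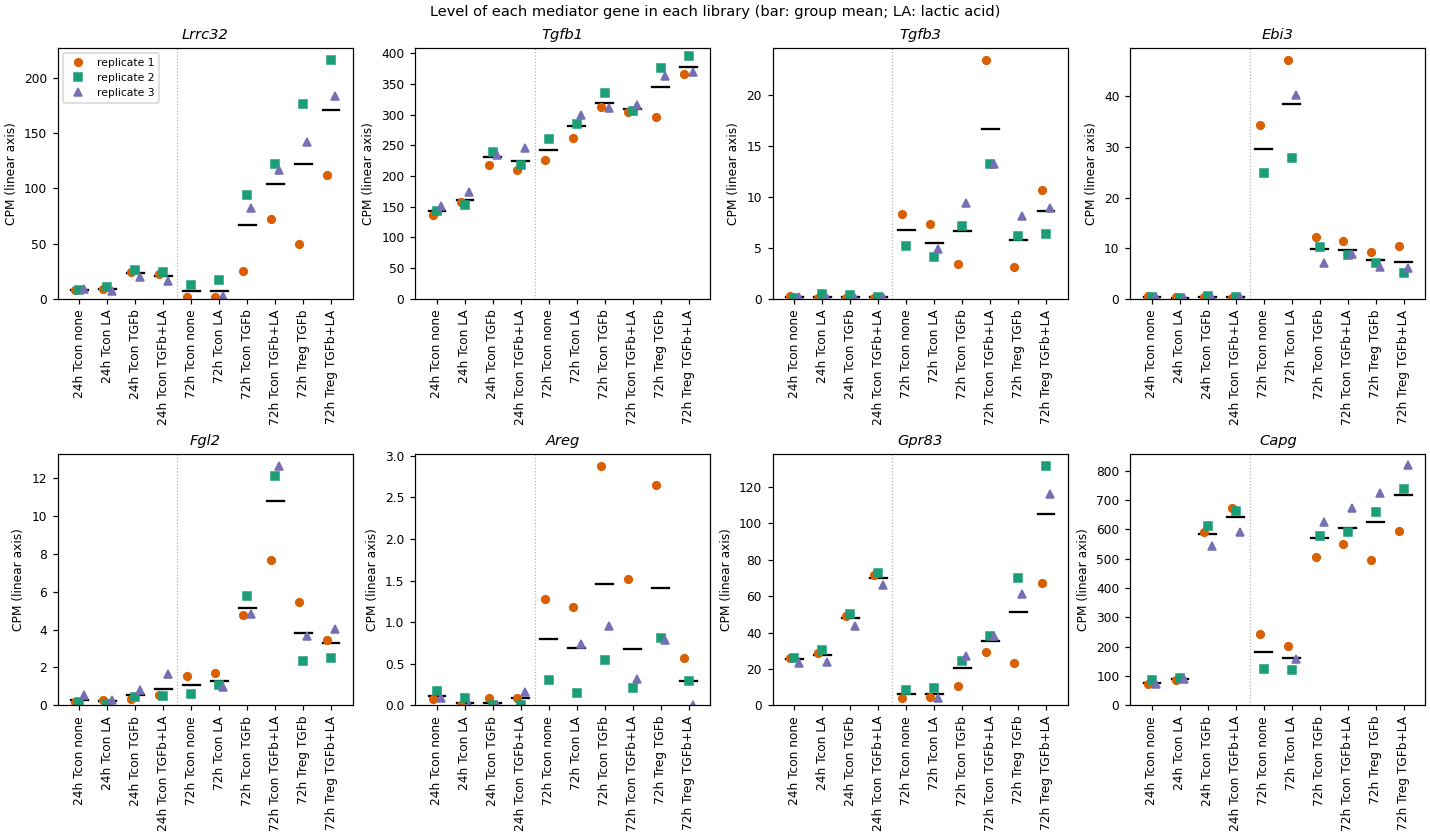
Level of each gene in each of the 29 libraries (y axis, CPM, linear, its own scale per gene), by group on the x axis; symbols give the replicate number, bars the group mean, and the dotted line divides 24 h from 72 h. Ebi3 is highest at 72 h without TGF-beta (24.8 to 47.2 CPM), whereas Lrrc32 and Capg are highest with it.

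TGF-beta was the addition with which these genes moved most often, as measured in Tcon with against Tcon without it. At 24 h without lactic acid 2 of the 8 rose and none fell (Tgfb1 and Capg), where 11.3% of all genes tested were called at an edgeR adjusted p below 0.05 and 7.96% were called higher. At 24 h with lactic acid 4 rose and none fell (Tgfb1, Fgl2, Gpr83 and Capg), against 12.4% of all genes, 8.06% higher. At 72 h without lactic acid 5 rose (Lrrc32, Tgfb1, Fgl2, Gpr83 and Capg) and Ebi3 fell, against 24.5% of all genes, 12.8% higher and 11.7% lower. At 72 h with lactic acid 5 rose (Lrrc32, Tgfb3, Fgl2, Gpr83 and Capg) and Ebi3 fell, against 45.0% of all genes, 22.5% higher and 22.5% lower. With the replicate number as a block 4, 5, 6 and 6 of the 8 were called, where 31.7%, 32.4%, 45.4% and 60.0% of all genes were. The median log2 fold change of the 8 genes was 0.78, 1.26, 1.26 and 1.77 in these comparisons, and that of all genes tested lay between -0.03 and 0.01. These 4 comparisons use different libraries, but each shares its groups with the comparisons of lactic acid and of time below.

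Marker sums of other cell types moved in the same comparisons. The sum of 8 CD8 T cell and NK cell markers was 104 to 127 CPM in 24 h controls and 15.5 to 20.1 CPM with TGF-beta, and 126 to 149 CPM against 17.4 to 25.6 CPM with lactic acid in both. At 72 h it was higher with TGF-beta, at 22.3 to 24.9 CPM against 31.5 to 73.3 CPM without lactic acid and at 13.6 to 26.5 CPM against 64.1 to 112 CPM with it. Most of this sum was Eomes (4.99 to 135 CPM over all libraries), a transcription factor that activated CD4 T cells can also express, and the NK receptors Ncr1 and Klra8 were at most 0.159 and 0.0741 CPM. The B cell sum was 233 to 253 CPM in 24 h controls and 131 to 134 CPM with TGF-beta, and 219 to 237 CPM against 138 to 155 CPM with lactic acid. At 72 h it overlapped without lactic acid (85.7 to 125 CPM against 86.2 to 106 CPM) and was 107 to 136 CPM against 186 to 194 CPM with it. These ranges also differ between 24 h and 72 h. The part of these sums in the results on TGF-beta and time was not tested.

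**Figure D2:**
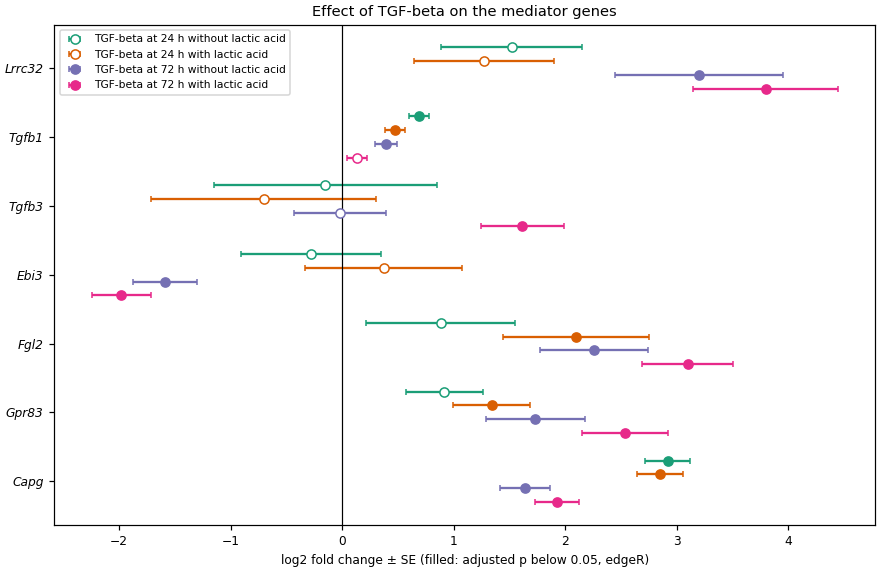
Log2 fold change of each gene for Tcon with against without TGF-beta (x axis, ± SE; filled points have an edgeR adjusted p below 0.05), at 24 h and 72 h without and with lactic acid. Areg is left out because some groups hold 1 to 4 counts of it; Lrrc32 reaches 3.80 and Ebi3 -1.98 at 72 h with lactic acid.

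Lrrc32, the surface anchor of latent TGF-beta, was at 8.37, 7.53 and 8.45 CPM in the 24 h control libraries (replicates 1 to 3). With TGF-beta it was at 24.0, 26.0 and 19.8 CPM, and all 3 libraries lay above all 3 controls. The log2 fold change was 1.52 ± 0.63 (SE), which did not pass the test (edgeR adjusted p = 0.132) but did with the replicate number as a block (adjusted p = 0.00148). With lactic acid in both media the 24 h change was 1.27 ± 0.63 (edgeR adjusted p = 0.212, and 0.00580 with the block), again without overlap.

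At 72 h Lrrc32 was at 1.63 and 12.7 CPM in the control libraries and at 24.7, 93.7 and 82.1 CPM with TGF-beta. The groups did not overlap, replicate 2 was the high control, and replicate 1 was the low library with TGF-beta. Lrrc32 rose 9.21-fold (log2 3.20 ± 0.76, edgeR adjusted p = 0.00296). With lactic acid it was at 2.09, 17.3 and 2.29 CPM without TGF-beta and at 72.2, 122 and 116 CPM with it, a 13.9-fold rise (log2 3.80 ± 0.65, edgeR adjusted p = 5.32e-05). Replicate 2 was again the high library without TGF-beta, and the groups were far apart.

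Tgfb1, which encodes the TGF-beta chain most used by T cells, was among the more abundant of the 8, and its changes were small in size. It was at 137, 142 and 151 CPM in the 24 h controls and at 218, 239 and 234 CPM with TGF-beta, with no overlap. This was a rise of 1.61-fold (log2 0.69 ± 0.09, edgeR adjusted p = 7.71e-06), and with lactic acid in both media it was 1.39-fold (log2 0.48 ± 0.09, edgeR adjusted p = 0.000635). At 72 h the control libraries were at 226 and 260 CPM and those with TGF-beta at 312, 335 and 311 CPM, a rise of 1.31-fold (log2 0.39 ± 0.10, edgeR adjusted p = 0.00539). That call was lost without control replicate 1 (edgeR adjusted p = 0.0762). With lactic acid at 72 h the 2 groups did not overlap either (262, 285 and 299 CPM against 304, 306 and 315 CPM), but the change did not pass the test.

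Tgfb3, a second TGF-beta chain, was nearly silent at 24 h, with 1 to 6 counts in each library. Its 72 h control libraries were at 8.30 and 5.22 CPM and those with TGF-beta at 3.45, 7.11 and 9.42 CPM, so these groups overlapped. With lactic acid at 72 h it was at 7.34, 4.12 and 4.90 CPM without TGF-beta and at 23.5, 13.2 and 13.3 CPM with it. The latter groups did not overlap, and Tgfb3 rose 3.07-fold (log2 1.62 ± 0.37, edgeR adjusted p = 0.00111). Exons of Tgfb3 overlap antisense genes over 163 and 257 of 3383 bases, and no source used here gives the strand setting of the counting. Reads over these bases may therefore have been left out as shared between genes, or counted for the wrong one.

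Of 16 other genes of TGF-beta latency and activation, 11 were tested. With TGF-beta at 72 h and no lactic acid 1 rose and 2 fell (4 and 4 with the block), and with lactic acid 3 rose and 1 fell (3 and 3 with the block). Of all genes, 24.5% and 45.0% were called in these comparisons, and 45.4% and 60.0% with the block. Furin, the protease that cleaves the TGF-beta precursor, rose in each of the 4 comparisons, by 1.24 ± 0.13, 0.91 ± 0.13, 0.60 ± 0.14 and 0.36 ± 0.13 on the log2 scale (highest edgeR adjusted p = 0.0226). Hsp90b1, a chaperone needed for surface Lrrc32, fell at 72 h (log2 -0.73 ± 0.15 without and -1.02 ± 0.14 with lactic acid, edgeR adjusted p = 0.000775 and 2.38e-06). Nrros, a relative of Lrrc32 that also holds latent TGF-beta, was at 40.4 CPM in 72 h controls and 25.3 CPM with TGF-beta. That change of -0.68 ± 0.36 on the log2 scale was called with the block (edgeR adjusted p = 0.191, with the block 1.27e-06). Tgfb2, the third TGF-beta chain, averaged at most 0.480 CPM in any group and was not tested.

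Ebi3, the shared chain of IL-35 and IL-27, was the only 1 of the 8 to fall with TGF-beta. At 24 h it was at 0.0911 to 0.519 CPM (1 to 7 counts) in all 12 libraries, with overlapping groups. At 72 h it was at 34.3 and 24.8 CPM in the controls and at 12.2, 10.2 and 7.05 CPM with TGF-beta. The groups did not overlap, and Ebi3 fell by 1.59 ± 0.28 on the log2 scale, or 3.01-fold (edgeR adjusted p = 0.000194).

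With lactic acid at 72 h Ebi3 was at 47.2, 27.8 and 40.2 CPM without TGF-beta and at 11.5, 8.63 and 8.95 CPM with it. It fell by 1.98 ± 0.26 on the log2 scale, or 3.95-fold, with no overlap (edgeR adjusted p = 2.28e-06). Exons of Ebi3 overlap an antisense gene over 270 of 1154 bases, with the same limit as for Tgfb3.

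The chains that Ebi3 pairs with were scarce. Il12a, the IL-35 partner, averaged 0.0303 to 3.17 CPM over the groups, and Il27 had no count outside the 72 h controls, where the highest library held 2. Il12a fell with TGF-beta at 72 h (log2 -2.46 ± 0.87 without and -4.40 ± 0.88 with lactic acid, edgeR adjusted p = 0.0419 and 0.000305). In the 72 h Treg Il12a stood at 0.161 CPM with TGF-beta and 0.0303 CPM with TGF-beta plus lactic acid, or at most 3 counts a library. Il12b, the chain that Il12a pairs with in IL-12, had 1 count in all 29 libraries.

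Of 9 other IL-12 family and receptor genes, 6 were tested, and at 72 h 1 rose and 3 fell with TGF-beta both without and with lactic acid. With the block the second count was 2 and 4. Over all genes 24.5% and 45.0% were called in these comparisons, and 45.4% and 60.0% with the block. The 1 that rose was Il27ra, the IL-27 receptor (log2 0.49 ± 0.16 and 0.58 ± 0.14). Il12rb1, a chain of the IL-12 receptor, fell in each of the 4 TGF-beta comparisons (log2 -1.40 ± 0.13, -1.79 ± 0.13, -1.40 ± 0.14 and -1.20 ± 0.13, highest edgeR adjusted p = 1.04e-07).

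Fgl2 was scarce at 24 h and rose with TGF-beta. Its 24 h libraries with lactic acid alone held 3, 1 and 3 counts (0.251, 0.0821 and 0.273 CPM), and those with TGF-beta plus lactic acid held 6, 6 and 21 (0.517, 0.478 and 1.65 CPM). The groups did not overlap, and replicate 3 was the high library. The change of 2.10 ± 0.65 on the log2 scale (edgeR adjusted p = 0.0359) was lost when any 1 of the lactic acid libraries or replicate 3 of TGF-beta plus lactic acid was left out (edgeR adjusted p = 0.0919, 0.162 and 0.0553 without lactic acid replicates 1 to 3, and 0.338 in the last case).

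At 72 h Fgl2 was at 1.54 and 0.614 CPM in the controls and at 4.77, 5.78 and 4.83 CPM with TGF-beta, a rise of 4.78-fold (log2 2.26 ± 0.49, edgeR adjusted p = 0.00129). With lactic acid it was at 1.72, 1.08 and 0.981 CPM without TGF-beta and at 7.66, 12.1 and 12.6 CPM with it. Neither pair of groups overlapped, and the second rise was 8.57-fold (log2 3.10 ± 0.41, edgeR adjusted p = 1.79e-06). Of 10 other fibrinogen-family and Fc receptor genes only Angptl2 and Angptl4 had enough counts to be tested, and Fcgr2b, the receptor bound by Fgl2, was not among them. Angptl2, a secreted protein with a fibrinogen-like domain, rose with TGF-beta in all 4 comparisons, by 1.94 to 2.54 on the log2 scale (highest edgeR adjusted p = 8.13e-06). Angptl4, a relative of it, fell at 72 h (log2 -0.71 ± 0.16 without and -1.04 ± 0.14 with lactic acid, edgeR adjusted p = 0.00157 and 2.99e-06) and was not called at 24 h.

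Areg was the scarcest of the 8, with 0 to 2 counts in each 24 h library and 0 to 35 at 72 h. Its 72 h values were 1.28 and 0.307 CPM in the controls and 2.88, 0.547 and 0.950 CPM with TGF-beta. In every 72 h group replicate 1 was the highest library, and the groups overlapped. No TGF-beta comparison called Areg. Of 18 other genes of the EGF family, its receptors and shedding enzymes, 8 were tested, and at 72 h none rose and 3 fell with TGF-beta both without and with lactic acid (0 and 5, and 1 and 4, with the block). The shares of all genes called there were 24.5% and 45.0%, and 45.4% and 60.0% with the block. Egfr, the receptor for Areg, averaged 6.33 CPM in 72 h controls and 0.610 CPM with TGF-beta, and fell by 3.35 ± 0.44 on the log2 scale (edgeR adjusted p = 4.15e-06). Adam10, a sheddase of membrane proteins, fell by 0.43 ± 0.09 (edgeR adjusted p = 0.00125).

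Gpr83 was at 26.2, 26.1 and 23.4 CPM in the 24 h controls and at 49.3, 50.3 and 43.6 CPM with TGF-beta. The groups were well apart, but the change of 0.92 ± 0.35 on the log2 scale missed the threshold, and passed it with the block and with the 2 groups fitted alone (edgeR adjusted p = 0.0918, with the block 0.000107, alone 2.88e-05). With lactic acid at 24 h it was at 28.9, 30.3 and 23.6 CPM without TGF-beta and at 71.5, 72.5 and 66.3 CPM with it. That rise of 2.54-fold passed (log2 1.34 ± 0.35, edgeR adjusted p = 0.0106). At 72 h the control libraries were at 4.11 and 8.21 CPM and those with TGF-beta at 10.6, 24.1 and 27.2 CPM, a rise of 3.32-fold (log2 1.73 ± 0.44, edgeR adjusted p = 0.00548). This call was lost without control replicate 1 (edgeR adjusted p = 0.0801), and replicate 1 was the low library in both groups.

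With lactic acid at 72 h Gpr83 was at 4.44, 9.47 and 4.005 CPM without TGF-beta and at 29.3, 37.9 and 38.2 CPM with it. It rose 5.80-fold, with no overlap (log2 2.54 ± 0.38, edgeR adjusted p = 1.20e-05). All 15 other G protein-coupled receptors of the list were tested, and at 72 h 3 rose and 4 fell with TGF-beta without lactic acid (7 and 5 with the block), against 7 and 6 with lactic acid (7 and 7 with the block). The shares of all genes called there were 24.5% and 45.0%, and 45.4% and 60.0% with the block. Gpr55, a lipid receptor, rose by 2.59 ± 0.35 and 2.36 ± 0.29 on the log2 scale, and Gpr174, a lysophosphatidylserine receptor, fell (log2 -1.40 ± 0.22 and -1.82 ± 0.21, highest edgeR adjusted p = 4.25e-05).

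At 24 h Capg gave the most separate groups with and without TGF-beta. It was at 71.5, 86.0 and 73.5 CPM in the 24 h controls and at 591, 613 and 543 CPM with TGF-beta, a rise of 7.56-fold (log2 2.92 ± 0.21, edgeR adjusted p = 5.85e-10). With lactic acid at 24 h the libraries were at 85.5, 92.3 and 88.8 CPM without and 673, 663 and 590 CPM with TGF-beta (7.22-fold, log2 2.85 ± 0.20, edgeR adjusted p = 6.09e-10). No library without TGF-beta came near one with it.

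At 72 h Capg was at 241 and 124 CPM in the controls and at 507, 577 and 626 CPM with TGF-beta, a rise of 3.12-fold (log2 1.64 ± 0.23, edgeR adjusted p = 8.55e-06). With lactic acid it was at 202, 119 and 157 CPM without and at 551, 592 and 673 CPM with TGF-beta (3.80-fold, log2 1.93 ± 0.20, edgeR adjusted p = 4.82e-08). The ranges with TGF-beta overlapped between the times, and those without it were higher at 72 h. Of 16 other actin-capping and gelsolin-family genes 15 were tested, and at 72 h 6 rose and 1 fell with TGF-beta, both without and with lactic acid (with the block 8 and 2, and 7 and 4). Over all genes 24.5% and 45.0% were called in these comparisons, and 45.4% and 60.0% with the block. The 1 that fell was Gsn (gelsolin), with log2 fold changes of -2.17 ± 0.43 and -1.80 ± 0.40 (edgeR adjusted p = 0.000590 and 0.000865).

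Among 32 other Treg effector and signature genes 31 were tested, and 10 rose and 7 fell with TGF-beta at 72 h without lactic acid, against 10 and 9 with it. With the block these counts were 11 and 10, and 14 and 12. The shares of all genes called there were 24.5% and 45.0%, and 45.4% and 60.0% with the block. Nt5e (CD73, which makes adenosine) averaged 3.02 CPM in 72 h controls and 157 CPM with TGF-beta, a log2 rise of 5.73 ± 0.46 (edgeR adjusted p = 3.55e-09). Itgae, the CD103 integrin chain, rose by 5.77 ± 0.38 (edgeR adjusted p = 1.59e-10). Gzmb, a cytotoxic protease that some Treg also use, was at 469 CPM in controls and 104 CPM with TGF-beta (log2 -2.17 ± 0.32, edgeR adjusted p = 2.51e-05). Ctla4, a checkpoint receptor of Treg, was called with TGF-beta at 24 h (60.1 against 27.7 CPM, edgeR adjusted p = 9.31e-05) and not at 72 h (184 CPM with TGF-beta against 221 CPM in controls).

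Treg were then compared with Tcon of the same 72 h medium, which asks how the genes differed between the gates. Without lactic acid none of the 8 was called by edgeR, where 0.216% of all genes were called. An unadjusted p below 0.05 was held by 1 of the 8 and by 809 of all genes. DESeq2 called 1 of the 8 and 80 of all genes. The block called 1 of the 8 and 2.94% of all genes. With lactic acid 1 rose (Gpr83) and 1 fell (Fgl2), where 2.55% of all genes were called, 1.27% higher and 1.27% lower. With the block 4 of the 8 were called, where 12.7% of all genes were. The median log2 difference of the 8 genes was 0.04 without and -0.09 with lactic acid. Each gate comparison shares its Tcon libraries with the TGF-beta comparisons above.

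Gpr83 was higher in Treg. Without lactic acid it was at 10.6, 24.1 and 27.2 CPM in Tcon and at 23.4, 69.8 and 61.1 CPM in Treg, higher in Treg at each of the 3 replicate numbers although the ranges overlapped. The log2 difference of 1.32 ± 0.35 missed the threshold in edgeR (adjusted p = 0.176) and passed it in DESeq2 (adjusted p = 0.0392), with the block (adjusted p = 3.32e-05) and in edgeR without Treg replicate 1 (adjusted p = 0.0148). With lactic acid it was at 29.3, 37.9 and 38.2 CPM in Tcon and at 67.2, 132 and 116 CPM in Treg, 2.99-fold higher with no overlap (log2 1.58 ± 0.34, edgeR adjusted p = 0.0126). That call was lost without Tcon replicate 1 (edgeR adjusted p = 0.0755), Treg replicate 2 (0.0941) or Treg replicate 3 (0.0532).

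Fgl2 was lower in Treg with lactic acid. It was at 7.66, 12.1 and 12.6 CPM in Tcon and at 3.43, 2.51 and 4.004 CPM in Treg, 3.26-fold lower with no overlap (log2 -1.71 ± 0.37, edgeR adjusted p = 0.0118). The call was lost without Treg replicate 2 (edgeR adjusted p = 0.101) or Tcon replicate 3 (0.0519). Without lactic acid it was at 4.77, 5.78 and 4.83 CPM in Tcon and at 5.46, 2.36 and 3.65 CPM in Treg, and the groups overlapped. The myeloid marker sum, given because Fgl2 is also made by myeloid cells, was 3.83 to 5.65 CPM in the Tcon and 2.37 to 5.28 CPM in the Treg of the lactic acid medium. The B cell marker sum, nearly all of it Ighm, was 186 to 194 CPM in these Tcon and 260 to 301 CPM in these Treg, without overlap, beside each gate difference given here for the lactic acid medium. The part of either sum in the results was not tested.

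Lrrc32 was at 49.3, 176 and 141 CPM in Treg without lactic acid against 24.7, 93.7 and 82.1 CPM in Tcon, and at 112, 216 and 184 CPM against 72.2, 122 and 116 CPM with it. Treg was higher at all 3 replicate numbers in both media, by 0.87 ± 0.56 and 0.72 ± 0.55 on the log2 scale, but the ranges overlapped and neither difference passed (edgeR adjusted p = 1.00 and 0.661). In both gates replicate 1 was the lowest library.

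Tgfb1 with lactic acid was at 304, 306 and 315 CPM in Tcon and at 366, 396 and 369 CPM in Treg. These did not overlap, but the log2 difference of 0.29 ± 0.09 was called with the block and in DESeq2 and not in the main edgeR test (edgeR adjusted p = 0.0964, with the block 0.00292, DESeq2 0.0291). Tgfb3 differed in the other direction, at 23.5, 13.2 and 13.3 CPM in Tcon and 10.7, 6.35 and 8.92 CPM in Treg. Here too the ranges were apart and the block gave a call (log2 -0.95 ± 0.36, edgeR adjusted p = 0.212, with the block 0.0292).

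Ebi3 averaged 9.81 and 9.69 CPM in Tcon and 7.61 and 7.24 CPM in Treg without and with lactic acid, within the spread of the libraries. Capg averaged 570 and 605 CPM in Tcon and 625 and 716 CPM in Treg, and these ranges overlapped. Areg averaged 1.46 and 0.679 CPM in Tcon and 1.42 and 0.289 CPM in Treg, also with overlap. Itgb8, an integrin chain that activates latent TGF-beta, was by contrast higher in Treg in both media, at 4.60 against 1.120 CPM without and 1.71 against 0.504 CPM with lactic acid. Its log2 differences were 2.03 ± 0.34 and 1.78 ± 0.41 (edgeR adjusted p = 0.00695 and 0.0173). Il10, a suppressive cytokine, was lower in Treg with lactic acid, at 2.03 against 10.4 CPM (log2 -2.37 ± 0.39, edgeR adjusted p = 0.00122).

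**Figure D3:**
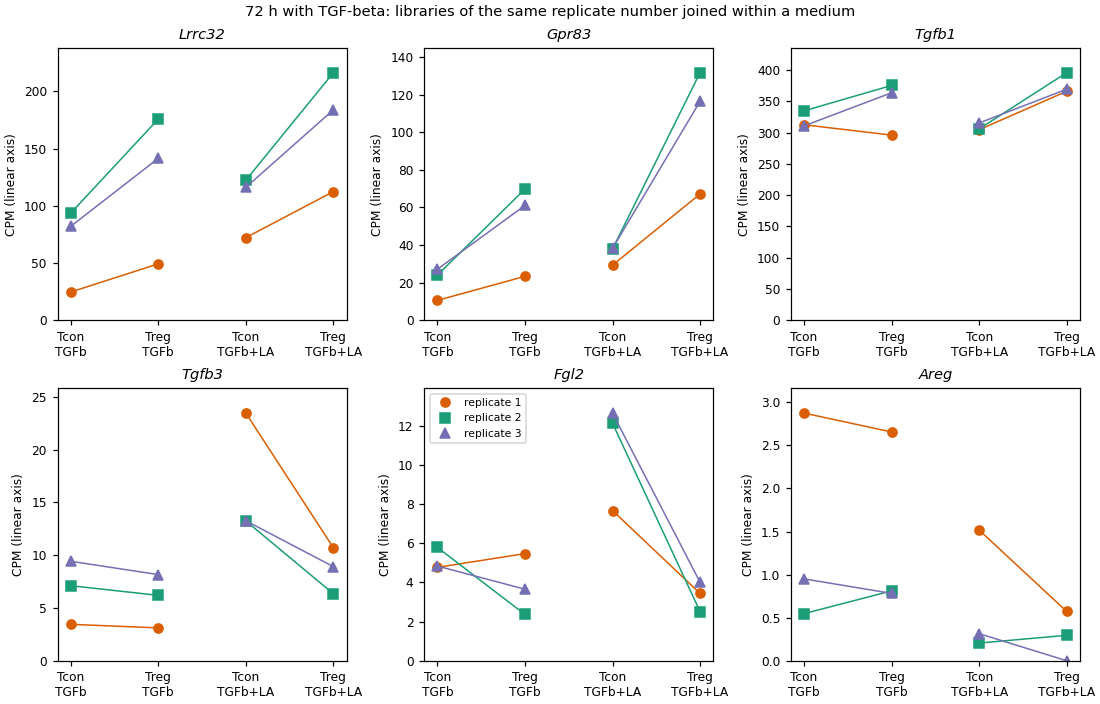
Levels in Tcon and Treg at 72 h with TGF-beta, without and with lactic acid (y axis, CPM, linear, its own scale per gene); lines join libraries of the same replicate number within a medium. Gpr83 and Lrrc32 are higher in Treg along every line, with replicate 1 lowest in both, and Fgl2 with lactic acid is at 7.66 to 12.6 CPM in Tcon and 2.51 to 4.004 CPM in Treg.

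Lactic acid was compared with its absence in 5 settings, and edgeR called none of the 8 genes in any. Of all genes, 0.0835% were called at 24 h without TGF-beta, 0.230% at 24 h with it, 0.0696% at 72 h without it, 2.16% in 72 h Tcon with it and 3.51% in 72 h Treg. At an unadjusted p below 0.05 the counts of the 8 genes were 0, 0, 1, 3 and 2 in the same order. Those of all genes were 1027, 1197, 1289, 2036 and 2454. DESeq2 called 0, 0, 0, 1 and 0 of the 8, and 503 of all genes in 72 h Tcon with TGF-beta. With the replicate block the counts of the 8 were 0, 1, 0, 4 and 2. Of all genes 4.27%, 6.70%, 3.42%, 15.4% and 19.7% were called with it. Treg held only libraries with TGF-beta, so lactic acid without TGF-beta could not be compared there.

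Tgfb3 in 72 h Tcon with TGF-beta was at 3.45, 7.11 and 9.42 CPM without and at 23.5, 13.2 and 13.3 CPM with lactic acid. The ranges did not overlap and replicate 1 was the lowest library of one group and the highest of the other. The log2 difference of 1.32 ± 0.36 was just outside the threshold in edgeR (adjusted p = 0.0589) and inside it in DESeq2 (0.0394), with the block (0.00339) and in edgeR without replicate 3 of the TGF-beta group (0.0452).

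Fgl2 in the same comparison was at 4.77, 5.78 and 4.83 CPM without and at 7.66, 12.1 and 12.6 CPM with lactic acid, also apart (log2 1.07 ± 0.35, edgeR adjusted p = 0.124, with the block 0.00236). Gpr83 was at 10.6, 24.1 and 27.2 CPM without and at 29.3, 37.9 and 38.2 CPM with it, a separation of narrow margin (log2 0.77 ± 0.35, edgeR adjusted p = 0.310, with the block 0.00109). Lrrc32 was higher with lactic acid at all 3 replicate numbers but overlapped (log2 0.63 ± 0.56, edgeR adjusted p = 0.696, with the block 0.0356). The B cell marker sum was also higher with lactic acid here, at 186 to 194 CPM against 86.2 to 106 CPM. Its part in these results was not tested.

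In 72 h Treg, Gpr83 was at 23.4, 69.8 and 61.1 CPM without and at 67.2, 132 and 116 CPM with lactic acid. It was higher with lactic acid at each replicate number (log2 1.03 ± 0.34), which missed the threshold in edgeR (adjusted p = 0.0963) and passed it with the block (1.43e-05), without Treg replicate 1 of the lactic acid group (0.0400) and without all male libraries (0.00330). Areg went the other way, at 2.66, 0.811 and 0.782 CPM without and at 0.572, 0.295 and 0 CPM with lactic acid. Those ranges were apart, on 35, 11 and 9 counts against 7, 4 and 0, and the block gave a call (log2 -2.23 ± 0.87, edgeR adjusted p = 0.173, with the block 0.00333). Foxp3 itself rose with lactic acid in Treg (log2 1.06 ± 0.26, edgeR adjusted p = 0.0240). The B cell marker sum in these Treg was 260 to 301 CPM with and 102 to 152 CPM without lactic acid, and its part was not tested.

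At 24 h with TGF-beta, Gpr83 was at 49.3, 50.3 and 43.6 CPM without and at 71.5, 72.5 and 66.3 CPM with lactic acid, and the ranges did not overlap. Its log2 difference of 0.55 ± 0.34 was called with the block and with these 2 groups fitted alone (edgeR adjusted p = 0.742, with the block 0.0254, alone 0.0278). Without TGF-beta, Gpr83 was at 26.2, 26.1 and 23.4 CPM against 28.9, 30.3 and 23.6 CPM with lactic acid at 24 h, which overlapped. At 72 h without TGF-beta it was at 4.11 and 8.21 CPM against 4.44, 9.47 and 4.005 CPM, also overlapping.

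Capg, Ebi3 and Tgfb1 differed little with lactic acid in either 72 h gate with TGF-beta, by -0.07 to 0.19 on the log2 scale, with SEs of 0.09 to 0.27. Tgfb1 without TGF-beta was 137, 142 and 151 CPM against 157, 152 and 174 CPM with lactic acid at 24 h, and 226 and 260 CPM against 262, 285 and 299 CPM at 72 h. Both pairs of ranges were just apart, and neither difference (log2 0.17 ± 0.09 and 0.21 ± 0.10) passed the test.

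The difference between lactic acid effects was tested directly. For lactic acid with against without TGF-beta at 24 h none of the 8 genes and 0% of all genes were called by edgeR, with 0 of the 8 and 197 genes at an unadjusted p below 0.05. At 72 h none of the 8 was called, where 0.104% of all genes were (4.54% with the block). An unadjusted p below 0.05 was held by 1 of the 8 and by 1121 of all genes. That 1 was Tgfb3, whose lactic acid effect was higher with TGF-beta by 1.63 ± 0.55 on the log2 scale, called with the block (edgeR adjusted p = 0.378, with the block 0.0454). For lactic acid in Treg against Tcon again none of the 8 genes and 0% of all genes were called, with 1 of the 8 (Fgl2, log2 -1.28 ± 0.52) and 381 of all genes at an unadjusted p below 0.05. DESeq2 called none of the 8 in any of the 3. In the main edgeR test the lactic acid effects were therefore not shown to differ with TGF-beta or between gates.

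Between 24 h and 72 h most of the 8 genes changed in every medium. In control Tcon 5 rose and 1 fell, where 45.5% of all genes were called, 27.1% higher and 18.4% lower. In lactic acid 6 rose and 1 fell, against 46.6% of all genes, 26.5% higher and 20.1% lower. In TGF-beta 6 rose and 1 fell, against 52.8%, 28.0% higher and 24.8% lower. In TGF-beta plus lactic acid 6 rose and 1 fell, against 47.4%, 24.4% higher and 23.0% lower. With the block 7 of the 8 were called in each medium, where 49.5%, 51.9%, 57.8% and 52.6% of all genes were. The 1 that fell was Gpr83 each time. The median log2 fold change of the 8 genes ran from 1.58 to 2.63, and that of all genes from -0.02 to 0.05.

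**Figure D4:**
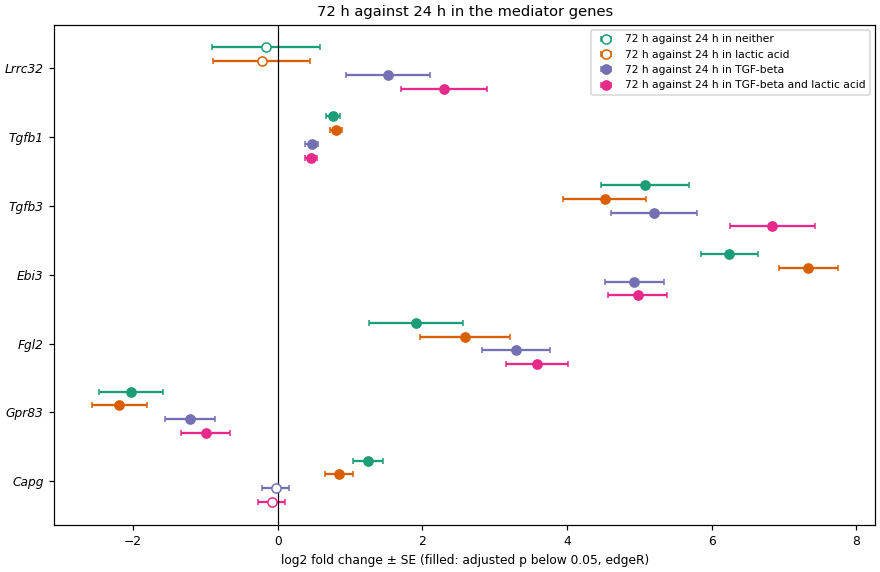
Log2 fold change of each gene in Tcon at 72 h against 24 h (x axis, ± SE; filled points have an edgeR adjusted p below 0.05), in each of the 4 media; Areg is left out because of its few counts at 24 h. Ebi3 and Tgfb3 rise in all media, by 4.52 to 7.34, and Gpr83 falls in all.

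Ebi3 and Tgfb3 went from near silence to measurable levels. Ebi3 rose by 6.24 ± 0.39 on the log2 scale in controls, 7.34 ± 0.41 in lactic acid, 4.93 ± 0.41 in TGF-beta and 4.98 ± 0.41 in TGF-beta plus lactic acid (highest edgeR adjusted p = 9.96e-10). Tgfb3 rose by 5.07 ± 0.61, 4.52 ± 0.58, 5.21 ± 0.60 and 6.84 ± 0.59 in the same order (highest edgeR adjusted p = 9.22e-07). No 72 h library of either gene overlapped a 24 h library of the same medium, and the 24 h libraries held 1 to 7 counts of each.

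Tgfb1 rose by 0.46 to 0.81 on the log2 scale in the 4 media (highest edgeR adjusted p = 0.000183). Fgl2 rose by 1.92 ± 0.65, 2.59 ± 0.62, 3.29 ± 0.47 and 3.59 ± 0.42 in controls, lactic acid, TGF-beta and TGF-beta plus lactic acid. The first of these (edgeR adjusted p = 0.0193) was lost without 24 h replicate 1 (0.0785), 24 h replicate 2 (0.0657) or 72 h replicate 1, and the others kept a p below the threshold without any 1 library. Leaving out all male libraries also ended the call in controls. The change there was 1.13 without 72 h replicate 1 and 0.80 without the male libraries, and both settings leave 1 control library at 72 h.

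Gpr83 fell by 2.02 ± 0.44 in controls, 2.19 ± 0.38 in lactic acid, 1.21 ± 0.35 in TGF-beta and 1.00 ± 0.34 in TGF-beta plus lactic acid, all on the log2 scale. The edgeR adjusted p was 0.000762, 5.98e-05, 0.00580 and 0.0193, and the last was lost without 72 h replicate 1 (0.0772). Lrrc32 rose with TGF-beta only, by 1.52 ± 0.58 without and 2.30 ± 0.59 with lactic acid (edgeR adjusted p = 0.0324 and 0.00273). Without lactic acid the ranges overlapped, at 19.8 to 26.0 CPM at 24 h and 24.7 to 93.7 CPM at 72 h. Its first call was lost without any 1 of the 24 h libraries (adjusted p = 0.0697, 0.0625 and 0.0928 for replicates 1 to 3) or without 72 h replicate 2 (0.1249) or 3 (0.0849). In controls and in lactic acid Lrrc32 overlapped between the times, and in lactic acid a fall of 1.98 was called when the high 72 h replicate 2 was left out (edgeR adjusted p = 0.0343).

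Capg rose in controls (log2 1.25 ± 0.21, edgeR adjusted p = 5.32e-05) and in lactic acid (log2 0.84 ± 0.19, edgeR adjusted p = 0.00106), and overlapped between the times in both media with TGF-beta. Areg, counted over the pooled libraries of a group, had 4 counts at 24 h and 19 at 72 h in controls, a CPM ratio of 7.05 (exact 95% interval 2.34 to 28.5). In lactic acid 1 and 24 counts gave a ratio of 22.7 (3.71 to 934). In TGF-beta 1 and 54 counts gave 50.5 (8.69 to 2032), and in TGF-beta plus lactic acid 3 and 25 counts gave 8.78 (2.68 to 45.4).

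These intervals cover counting error only. In edgeR Areg was called in lactic acid, TGF-beta and TGF-beta plus lactic acid (adjusted p = 0.0218, 0.00160 and 0.0443), and in controls with the block or without 72 h replicate 2 (adjusted p = 0.0659, with the block 0.0126, without that library 0.0359). In lactic acid the call was lost without 24 h replicate 1 (0.0699), 24 h replicate 3 (0.0697) or 72 h replicate 1 (0.0928). In TGF-beta plus lactic acid it was lost without 24 h replicate 1 (0.0917), 2 (0.136) or 3 (0.0583) or 72 h replicate 1 (0.405). Leaving out all male libraries also ended both calls, with log2 changes of 3.02 in lactic acid and 1.61 in TGF-beta plus lactic acid.

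Whether TGF-beta changed the genes differently at 72 h and 24 h was tested as a difference of the log2 fold changes. Without lactic acid 1 of the 8 genes was called (Capg, lower at 72 h), where 5.73% of all genes were called, 3.33% lower. With lactic acid 2 were (Capg and Ebi3, both lower at 72 h), where 14.4% were, 7.66% lower. With the block 3 and 5 of the 8 were called, where 19.4% and 33.6% of all genes were. Capg differed by -1.28 ± 0.29 without and -0.93 ± 0.27 with lactic acid (edgeR adjusted p = 0.00762 and 0.0235). The first was lost without 72 h control replicate 1, the highest control library (-0.71), and without all male libraries (-0.60). Both settings leave 1 control library at 72 h. The second was lost without lactic acid replicate 1 or 3 at 24 h (0.0505 and 0.0578) or at 72 h (0.0972 and 0.0532), or without 72 h replicate 1 of TGF-beta plus lactic acid (0.0512).

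Ebi3 with lactic acid differed by -2.36 ± 0.77 (edgeR adjusted p = 0.0427), on 24 h libraries with 1 to 5 counts. Leaving out 1 library ended this call in 8 of 12 cases. At 24 h these were replicates 2 and 3 of lactic acid (0.0730 and 0.124) and of TGF-beta plus lactic acid (0.164 and 0.0972). At 72 h they were replicates 1 and 3 of lactic acid (0.0701 and 0.0703) and replicates 2 and 3 of TGF-beta plus lactic acid (0.0674 and 0.0642).

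With the block, Lrrc32 and Tgfb1 were also called without lactic acid (1.68 ± 0.95 and -0.29 ± 0.13 on the log2 scale, edgeR adjusted p = 0.383 and 0.244, with the block 0.0298 and 0.0267). With lactic acid Lrrc32, Tgfb1 and Gpr83 were called with the block (2.53 ± 0.89, -0.35 ± 0.13 and 1.19 ± 0.51, edgeR adjusted p = 0.0584, 0.0682 and 0.124, with the block 0.000154, 0.00444 and 0.000596). Of these, Lrrc32 and Gpr83 were also called without the block when 72 h lactic acid replicate 2 was left out (edgeR adjusted p = 0.00197 and 0.0341). That library was the highest for both genes in its group.

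The 8 genes did not follow 1 pattern over the 10 groups. The correlation of group means of log2 CPM with those of Foxp3 was 0.92 for Lrrc32, 0.89 for Gpr83, 0.86 for Capg, 0.55 for Tgfb1, 0.51 for Fgl2, 0.12 for Tgfb3, 0.01 for Areg and -0.18 for Ebi3 (Pearson's r, n = 10 groups that share media, times and replicate sources). Tgfb3 and Ebi3 gave 0.92 with each other, where both were near silent in all 24 h groups, and Ebi3 and Gpr83 gave -0.55. These values are descriptions.

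For each gene the 3 protein-coding genes with the most similar group means were found among 9474 or 9475 genes that averaged 5 CPM or more. They were Hdac6, Chd3 and Prdm2 for Lrrc32 (r = 0.99 for each), Ass1, Igsf8 and Fes for Tgfb1 (0.99, 0.99 and 0.98), and Hip1, Gmds and Prelid1 for Tgfb3 (1.00, 0.99 and 0.99). For Ebi3 they were Pik3ap1, Tgm2 and Pck2 (0.99 for each), and for Fgl2 Ap4e1, Fam114a2 and Tcf25 (0.98, 0.98 and 0.98). For Areg they were Ppp1r15a, Cdyl and Hmox1 (0.97, 0.97 and 0.96), for Gpr83 Tlr1, Tmem64 and Tapbp (0.99, 0.98 and 0.98), and for Capg Itgb2, Arhgap25 and Emp1 (0.99 for each). With 10 groups, 144 (Areg) to 956 (Tgfb3) genes had an r over 0.9, so such likeness was common.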

How the data were processed

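Poly(A) RNA of 29 libraries in 10 groups was measured. The deposited files hold raw read counts per Ensembl gene, one file per library. Per the submitters' processing notes, STAR 2.7.3a, HTSeq 0.12.4, DESeq2 1.30.1 and genome build GRCm39 were used; no source used here gives the annotation release or the strand setting, and per the labels' protocols the libraries are strand-specific. Entries that name no gene (21.9% to 26.7% of a file's total) were left out. Of 55414 genes, 52081 were matched to a symbol.

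Genes were kept by edgeR's filterByExpr (minimum count 10, minimum total 15), scaled by TMM, and tested with edgeR's quasi-likelihood test (edgeR 4.0.16, limma 3.58.1, R 4.3.3) in 1 fit of all 10 groups, with Benjamini-Hochberg adjustment over the 14375 genes tested and a threshold of 0.05. CPM in the text are counts per 1000000 of the TMM-scaled library size, and ± after a log2 value is its standard error. Comparisons numbered 20, of 15 group pairs and 5 differences of differences. A higher gene count makes a value more precise, and values from a few counts are limited by depth. The test was tried on simulated counts of 13850 genes, for Treg against Tcon at 72 h without lactic acid: 63.5% of genes changed 2-fold and 88.7% of genes changed 4-fold were recovered, and 8 unchanged genes were called. The simulated counts were drawn independently for each library, with no effect shared by a replicate number, so recovery in the real libraries may differ.

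Whether replicate numbers pair the libraries was checked by the correlation of deviations from group means: with 3 shared numbers it was 0.12 to 0.77 within a time point and -0.06 to 0.15 between time points. Within a time point the numbers were therefore taken to pair libraries, and the block is the replicate number within each time point. For time comparisons the block is the replicate number over all libraries, although the check gave little pairing between time points. Alternatives were RLE size factors, no filter on low counts, the block, the compared groups fitted alone, DESeq2 1.42.0, leaving out each library, and leaving out the male libraries.

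The 8 genes, the gene lists and the tests were chosen with earlier results of these data known. Named besides the 8 genes were a panel of partner and Treg genes (Foxp3, Il10, Ctla4, Il12a, Il27, Tgfb2, Nrros, Itgb8, Furin, Hsp90b1, Nt5e and Gzmb). Also eligible were up to 3 called genes per list and comparison with the largest fold change among those at 5 CPM or more, and the 3 most alike genes; of the eligible ones only a selection is described. Egfr, Il12b, Angptl4, Ighm, Eomes, Cd8a, Cd8b1, Klrd1, Klrb1c, Klre1, Ncr1, Klra8 and Fcgr2b lie outside the rule in some sentences. These genes were named after their values were seen. Exon lengths came from GENCODE vM21 (GRCm38) and promoters from RefSeq (GRCm38.p6), whose coordinates are not those of the count tables' build.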

Additional observations from a re-analysis of the deposited data

Results flagged for a closer look

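3 differences of TGF-beta effects between 24 h and 72 h passed the test of the difference itself. For Capg without lactic acid the effect was lower at 72 h by 1.28 on the log2 scale (-1.28 ± 0.29 SE, edgeR adjusted p = 0.00762), and with lactic acid the difference was -0.93 ± 0.27 (edgeR adjusted p = 0.0235). For Ebi3 with lactic acid it was -2.36 ± 0.77 (edgeR adjusted p = 0.0427). The 2 time points cannot be told apart from 2 experiments, and the libraries that end each call are named with the results.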

How the results depend on the processing

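Counts of the 8 genes called moved by over 1.5 times as follows, each given with the count of the main analysis; smaller moves come after. With the replicate block they were 1 (main 0) for lactic acid at 24 h with TGF-beta, 4 (main 0) and 2 (main 0) for lactic acid in 72 h Tcon and Treg with TGF-beta, 4 (main 2) for TGF-beta at 24 h without lactic acid, 1 (main 0) and 4 (main 2) for Treg against Tcon without and with lactic acid, 1 (main 0) for the difference of lactic acid effects with and without TGF-beta at 72 h, and 3 (main 1) and 5 (main 2) for the difference of TGF-beta effects between times without and with lactic acid. The shares of all genes called with the block are given with the results. With no filter on low counts the counts of the 8 were 2 and 1 for lactic acid in 72 h Tcon and Treg. They were 4 for TGF-beta at 24 h and 1 for Treg against Tcon, both without lactic acid. For the TGF-beta difference between times with lactic acid the count was 4. Over all genes, no filter gave 543, 668, 1548, 95 and 1777 calls in this order (main 311, 504, 1625, 31 and 2068). DESeq2 gave 1 for lactic acid in 72 h Tcon and 1 for Treg against Tcon without lactic acid, with 503 and 80 calls over all genes. Smaller moves were 3 (main 2) in DESeq2 for Treg against Tcon and for the TGF-beta difference between times, both with lactic acid, 5 (main 4) for TGF-beta at 24 h with lactic acid and 7 (main 6) for 72 h against 24 h in controls, each with the block and with no filter, and, with the compared groups alone, 5 (main 6) for 72 h against 24 h in controls, 6 (main 7) in each of the other media and 3 (main 2) for the TGF-beta difference between times with lactic acid. The compared groups alone gave 1 for lactic acid at 24 h with TGF-beta and 4 for TGF-beta at 24 h without lactic acid. They gave 3 (main 6) for TGF-beta at 72 h without lactic acid, where Lrrc32, Tgfb1 and Gpr83 were lost. Fewer samples estimate the spread there. Over all genes the groups alone gave 90, 3856 and 1058 calls in these comparisons (main 33, 1625 and 3517). RLE size factors gave 1 for the TGF-beta difference between times with lactic acid, where Ebi3 was lost (edgeR adjusted p = 0.0505). Over all genes that setting gave 2052 calls (main 2068).

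Leaving out 1 library or the male libraries, the counts were 0 to 1 for lactic acid in 72 h Tcon and in Treg and for Treg against Tcon without lactic acid, 0 to 3 for Treg against Tcon with lactic acid, 2 to 4 and 3 to 4 for TGF-beta at 24 h without and with lactic acid, 4 to 6 for TGF-beta at 72 h without lactic acid, 5 to 7, 6 to 8, 6 to 7 and 5 to 7 for 72 h against 24 h in controls, lactic acid, TGF-beta and both, and 0 to 1 and 0 to 5 for the TGF-beta difference between times without and with lactic acid. Log2 values that reversed were those of Fgl2 for lactic acid at 24 h with TGF-beta (-0.0496 to 1.24), Areg for TGF-beta at 72 h without lactic acid (-0.0614 to 2.22), Areg for Treg against Tcon with lactic acid (-2.06 to 0.16) and Areg for the difference of lactic acid effects between gates (-2.13 to 0.18). None of these was called. Sign changes of uncalled values smaller than their own standard error were not counted as reversals. Of 120 pairs of a gene and a 2-group comparison 47 were called; the block added 14 calls, each given with its result, lost 0 and changed no other. With the small sign changes above counted as kept, 1255 of 1320 values with libraries left out kept their direction and side of the threshold. So did 723 of 766 under the other alternatives. The cause of these moves was not tested. Areg at 24 h and Fgl2, Tgfb3 and Ebi3 at 24 h rest on a few counts a library, which limits every value that uses them.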
